A study of Schizosaccharomyces pombe with 2 samples.

Results

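The hexose transporter genes *ght1* to *ght8* of the fission yeast *Schizosaccharomyces pombe* were examined in 2 PacBio Iso-Seq libraries, in which polyadenylated RNA is read as long cDNA molecules and collapsed into transcript models. The 8 genes were taken by name from the RefSeq annotation of assembly ASM294v3 and are 8 of 5113 protein-coding genes on chromosomes I to III. All collapsed models that overlapped them on either strand were collected. One library was made from untreated WT cells of mating type h+. The other, called the pool here, combined that WT with an h+ *hrp1*Δ*hrp3*Δ strain (hrp1del::kanMX and hrp3del), each left untreated, given 14 mM caffeine or given 200 ng/ml clotrimazole. The share of each condition in the pool is not given in the sources used here. Hrp1 and Hrp3 are chromatin remodelers of the CHD family, and the series was designed to catalogue antisense transcripts. All cells shared the ade6-M216, ura4-D18 and leu1-32 alleles and were grown in rich YES medium, which contains glucose, at 32 °C to an OD600 of about 0.5.

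The Ght proteins are sugar carriers of the major facilitator superfamily that sit in the plasma membrane. Ght5 is the main high-affinity glucose carrier and is needed when glucose is scarce, Ght1 and Ght2 also carry glucose, Ght6 prefers fructose, and Ght3 takes up gluconate together with protons. In glucose-rich medium the zinc-finger repressor Scr1 holds down several genes of sugar use, whereas the activator Rst2, controlled by cAMP-dependent protein kinase, acts when glucose runs low.

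The untreated WT file held 26120 models and the pool file held 69996. A model carries no read number, and the score column read 40 on every line, so a number of models is a number of distinct structures and not a level of RNA. There was 1 library per condition, so no test between libraries was possible, and run, genotype, treatment and depth cannot be told apart. As a check on the labels, *ura4* had 0 sense models in both libraries, as the ura4-D18 deletion implies, and *hrp3* had 5 sense models in WT and 8 in the pool, which still contains WT cells. Because the deposited models were collapsed so that a shorter 5′ end is absorbed by a longer model with the same 3′ end, a downstream start can be seen where its 3′ end or its splicing differs from those of the longer models.

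The paralogues are similar enough to ask whether their reads can be told apart. Over the 28 pairs, protein identity ran from 55.9% to 91.6% with a median of 69.1%. The closest pair was *ght5* and *ght8*, with 91.6% identical residues and a longest identical coding run of 248 nt, followed by *ght3* and *ght4* with 86.9% and 240 nt. The shortest model on the strand of a *ght* gene, at *ght5*, was 406 nt long and lay upstream of the coding sequence. Whether any read was placed at the wrong paralogue was not tested.

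In untreated WT 6 of the 8 genes had a sense model, and in the pool all 8 did. Over all protein-coding genes, 91.6% had a sense model in WT and 98.9% in the pool. The same 6 and 8 genes had at least 1 model over the whole coding sequence, compared with 87.7% and 96.4% of all genes. The 2 paralogues with 0 sense models in WT were *ght6*, the fructose carrier, and *ght7*, whose substrate is less well described.

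*ght8* (SPCC548.06c, chromosome III 226336 to 228845, minus strand) had the most sense models of the family, 17 in WT and 31 in the pool. In WT 1.49% of all protein-coding genes had at least as many, and in the pool 2.78%. *ght2* (SPBC4B4.08, chromosome II 3427160 to 3429424, plus strand) followed with 10 and 18. *ght5* (SPCC1235.14, chromosome III 212313 to 214376, plus strand) had 7 in each library. It was the paralogue whose sense number was equal in the pool, although the pool file held 2.68 times as many models in all.

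The other paralogues had few models. *ght1* (SPCC548.07c, chromosome III 232288 to 235195, minus strand) had 1 sense model in WT and 2 in the pool. *ght3* (SPAC1F8.01, chromosome I 82936 to 84786, plus strand) had 2 and 4. *ght4* (SPBC1683.08, chromosome II 155772 to 159570, plus strand), the closest relative of *ght3*, had 2 and 6. *ght6* (SPCC1235.13, chromosome III 204733 to 206717, plus strand) had 0 and 1, and *ght7* (SPBC1348.14c, chromosome II 38514 to 40143, minus strand) had 0 and 3. All 8 genes are annotated with a single exon, and no sense model joined a *ght* gene to another coding gene.

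**Figure D1:**
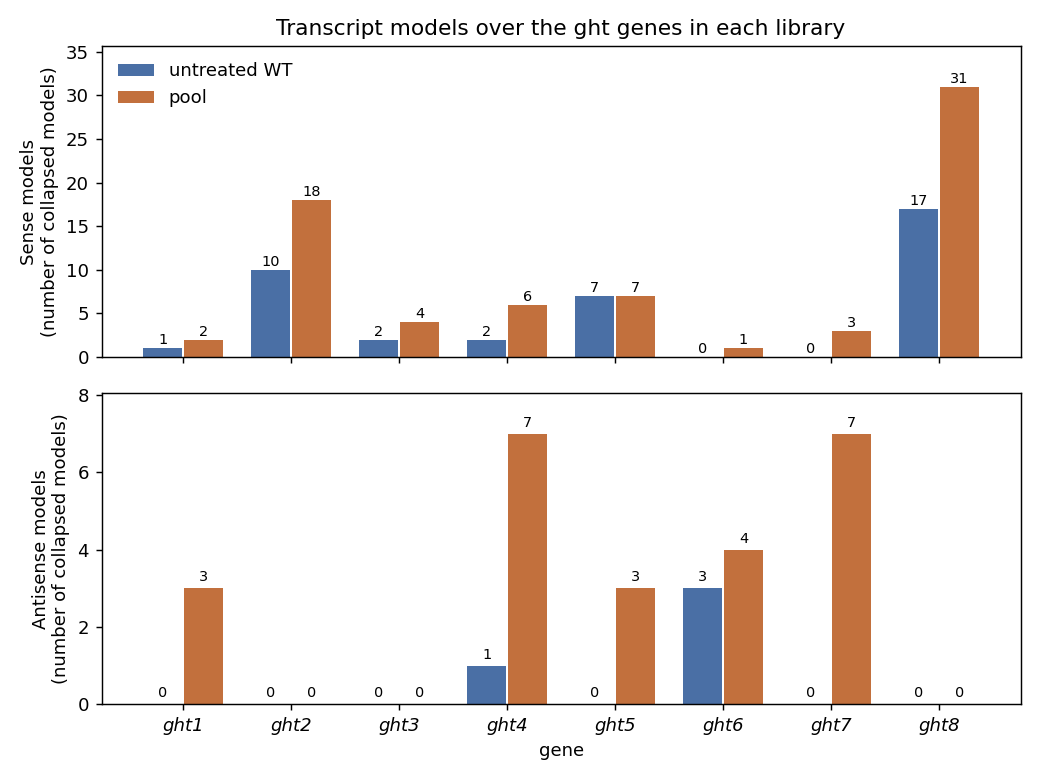
Number of collapsed sense models (upper panel) and antisense models (lower panel) over each *ght* gene, with blue bars for untreated WT and orange bars for the pool. *ght8* and *ght2* carry the most sense models in both libraries, and *ght6* and *ght7* have 0 sense models in WT.

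Summed over the family there were 39 sense models in WT and 72 in the pool, a ratio of 1.85, beside a ratio of 2.39 for sense models over all protein-coding genes. The median *ght* gene had 2.0 sense models in WT and 5.0 in the pool, and the median of all genes was 4 and 11. Most genes of the family had fewer structures than the typical gene, while *ght8* lay near the top of the range. Models present in WT were largely seen again in the pool: 32 of the 39 WT sense models (82.1%) had a pool model of the same gene ending within 20 nt, compared with 94.0% over all genes. Among models over the whole coding sequence, 25 of 28 WT starts (89.3%) had a pool start within 20 nt, against 93.4% over all genes.

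The start positions differed between paralogues, from 1 shared position at *ght5* to 7 start clusters at *ght8* in the pool. The cDNA was not selected for capped 5′ ends, so a start can also be the end of a shortened molecule. Which starts are starts of transcription was not tested. The sequences before the starts that the results turn on are shown here in the direction of transcription, with the assembly ASM294v3 window of each. Any match to TATAAA, the letters of a canonical TATA box, is in capitals, and looser matches to a TATA box are not marked. Windows of proximal starts, and of the *ght5* start, are the 30 bases ending 15 bases before the start, and the others are the 60 bases just before it.
*ght5* start at -678, III:211590-211619, plus strand: cgtttgttggtatatattataactgcaaac
*ght8* proximal start at -445, III:228861-228890, minus strand: tattttttttctatataagtagcccgctca
*ght8* distal start at -2040, III:230441-230500, minus strand: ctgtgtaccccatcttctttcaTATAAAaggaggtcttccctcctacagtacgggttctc
*ght2* proximal start at -412, II:3427115-3427144, plus strand: cccgaatttagTATAAAagctgccctcttg
*ght2* distal start at -1761, II:3425751-3425810, plus strand: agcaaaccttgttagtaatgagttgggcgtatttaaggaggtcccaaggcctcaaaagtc
*ght6* start at -349, III:204324-204383, plus strand: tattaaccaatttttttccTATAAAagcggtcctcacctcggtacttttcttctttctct

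The *ght5* models shared 1 start position, although a downstream start with the same 3′ end as a longer model would have been absorbed by the collapsing. All 8 WT models and all 9 pool models of its strand began at base 211635 of chromosome III, 678 nt before the first codon, including those that ended before the coding sequence. RefSeq annotates no 5′ UTR for *ght5*, so the leader seen here lies wholly outside the annotated gene. *ght2* and *ght8*, in contrast, each had a start at the annotated gene border and another far upstream.

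At *ght8*, 10 of 17 WT models and 20 of 31 pool models began at or within 2 nt of base 228845, 445 nt before the first codon, which is the annotated start. A further 6 WT models and 4 pool models began at about base 230440, 2040 nt before the first codon. The remaining WT model began 313 nt before the first codon. The remaining 7 pool models began 7, 48, 855, 908, 1014, 2121 and 2157 nt before the first codon. Start clusters, in which positions within 50 nt of each other are joined, numbered 3 in WT and 7 in the pool.

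*ght2* had 5 start clusters in WT, a number reached by 2.28% of genes with a sense model, and 4 in the pool. The 5 WT clusters include 2 of 1 model each inside the coding sequence. In WT 6 of 10 models began near base 3425815, 1757 nt before the first codon, and 3 of these 6 covered the whole coding sequence. Of the others, 1 began at the annotated start, base 3427160, 412 nt before the first codon, 1 began 142 nt before it, and 2 began inside the coding sequence, at 129 and 1011 nt. In the pool 14 models fell in the distal cluster, counting 4 that ended before the annotated gene, and 6 began at base 3427160. Of these, 4 distal and 3 proximal models covered the whole coding sequence, and 8 distal models ended before the first codon. A further pool model began 1692 nt before the first codon, and 1 began inside the coding sequence, at 507 nt. *ght4*, a gene whose annotation already has a 5′ UTR of 1783 nt, had a WT start at base 155808, 1747 nt before the first codon, and the pool added 1 model from base 156981, 574 nt before it. The other 3 *ght4* starts in the pool lay inside the coding sequence, at 268, 587 and 654 nt.

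*ght3*, with no annotated 5′ UTR, began 698 and 739 nt before its first codon in WT and 697 nt before it in 2 pool models, while a further pool model began 214 nt before it and another 69 nt inside the coding sequence. *ght1* began at base 235500 in WT and 235499 in the pool, 993 and 992 nt before the first codon, and the second pool model began 5 nt inside the coding sequence. The sense model of *ght6* in the pool ran from base 204384, 349 nt before the first codon, to base 206715. *ght7* had 1 pool model over its whole coding sequence, from base 40657, 514 nt before the first codon, and 2 pool models that began inside the coding sequence, at 281 and 394 nt.

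At *ght1* each library had 1 model over the whole coding sequence, and these models differed in the splicing of the leader. The WT model lacked 56 nt, from 235148 to 235203, and the pool model with the same start was unspliced, which gave leaders of 937 and 992 nt. Whether the libraries differ in splicing was not tested. A repeat of 5 nt at the borders of the gap means that the alignment alone does not fix the junction. The removed stretch has the GT and AG ends of a spliceosomal intron, shown in capitals in its first and last 15 bases on the minus strand of chromosome III.
*ght1* leader intron, first 15 bases: GTaaaggcatctttc
*ght1* leader intron, last 15 bases: acttacccttcgcAG

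The leaders of this family were long. The longest leader of a model over the whole coding sequence was at least 500 nt in 6 of the 6 *ght* genes with such a model in WT, beside 21.5% of all genes with one. In the pool it was at least 500 nt in 7 of 8, beside 40.3% of all genes. The exception was *ght6*, at 349 nt. The median of the longest leaders was 1342.0 nt for the *ght* genes and 182.0 nt for all genes in WT, and 844.5 and 384.0 nt in the pool. The *ght* medians cover 6 genes in WT and 8 in the pool, where *ght6* at 349 nt and *ght7* at 514 nt enter. They are therefore not a change of leader length in the same genes. The 6 WT values were 678 nt at *ght5*, 739 nt at *ght3*, 937 nt at *ght1*, 1747 nt at *ght4*, 1761 nt at *ght2* and 2040 nt at *ght8*. *ght8* reached 2157 nt in the pool, a length met or exceeded by 4.06% of genes.

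**Figure D2:**
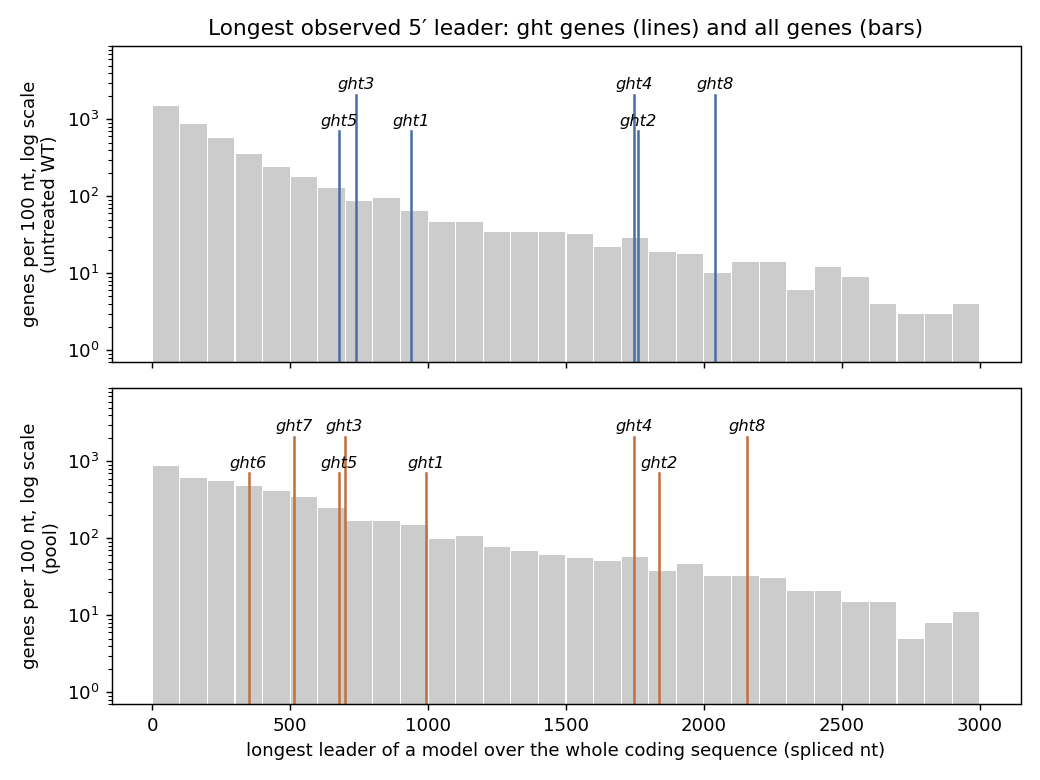
Longest spliced 5′ leader of a model over the whole coding sequence, in nt, for all protein-coding genes (grey bars, genes per 100 nt on a log axis, drawn up to 3000 nt) and for the *ght* genes (vertical lines), in untreated WT above and the pool below. *ght2*, *ght4* and *ght8* lie beyond 1700 nt in both libraries.

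Proximal and distal leaders differed in their upstream ATG triplets. ATG is the usual start codon, and an ATG in a leader can open a short reading frame ahead of the coding sequence. The 678-nt leader of *ght5* held 0 ATG triplets, as did the 412-nt leader of *ght2*, the 445-nt leader of *ght8*, the 349-nt leader of *ght6* and the 214-nt leader of *ght3*. The distal leaders held many: 22 in the 1761 nt of *ght2*, 25 in the 2040 nt of *ght8* and 29 in the 1747 nt of *ght4*. The leaders of *ght1* and *ght3* from their far starts held 5 each, the *ght7* leader 6, and the 574-nt pool leader of *ght4* 3. Every one of these frames met a stop codon before the first codon of the transporter, and the longest, at *ght8*, had 62 codons. Over 753 genes whose commonest leader measured 300 to 700 nt, 25.5% held 0 ATG triplets and the median was 2. Over 234 genes with leaders of 1000 to 3000 nt, 5.13% held 0 and the median was 22.5, so the ATG numbers in the distal leaders were near those of other leaders of that length.

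Letters known from promoters of this yeast were searched before each start on both strands. TATAAA occurred within 100 bp before the proximal start of *ght2*, 34 bp upstream, before the start of *ght6*, 41 bp upstream, and before the distal start of *ght8*, 38 bp upstream. It was found before the commonest start of 19.0% of 4935 genes. It was not found within 100 bp before the starts of *ght1*, *ght3*, *ght4*, *ght5* and *ght7*. TATAAA was also absent before the 445-nt start of *ght8*. The window printed for that start does hold tatataag, which matches TATAWAWR, the looser TATA-box consensus used in the paper. That consensus was not searched for here, so the absence of TATAAA does not show that the 445-nt start lacks a TATA box. CCCCTC, the letters of the stress response element bound by zinc-finger proteins such as Rst2 and Scr1, occurred within 500 bp before the start of *ght5* at 108 bp, before the 697-nt start of *ght3* at 217 bp, and before the distal start of *ght8* at 102, 407 and 415 bp. At *ght1*, *ght2*, *ght4*, *ght6* and *ght7* it was not found before any start of a model over the whole coding sequence. Nor was it found before the 445-nt start of *ght8*. Over the commonest starts of the 4935 genes, 3.4% had it. Both shares over all genes count the commonest start of a gene, whereas several starts of a *ght* gene could be searched, so they are not like for like. These are matches of letters and do not show that a factor binds there.

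Some transcripts of 4 paralogues stopped before the coding sequence. They shared the start of a model over the whole coding sequence but ended ahead of the first codon, and they are called leader-only here. In WT there were 3 at *ght2*, 2 at *ght8*, 1 at *ght4* and 1 at *ght5*. In the pool there were 8 at *ght2*, 3 at *ght8*, 1 at *ght4* and 2 at *ght5*. The same 4 genes had them in both libraries, 4 of 6 in WT beside 4.10% of all genes with a model over the whole coding sequence, and 4 of 8 in the pool beside 12.9%. These shares over all genes were not matched for leader length. The part of the long *ght* leaders in the difference was not tested. At *ght2* and *ght8* every leader-only model came from a start at least 1754 nt before the first codon, and 0 came from the proximal start. A proximal leader-only transcript with the same 3′ end as a distal one would have been absorbed by the collapsing and could not be seen.

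At 3 of the 4 genes a leader-only end recurred to the base between libraries. How often ends recur to the base over all genes was not measured, and the pool contains WT cells. The *ght4* leader-only model ended at base 157090 in both, 465 nt before the first codon. In both libraries it contained SPNCRNA.298, a non-coding RNA annotated on the same strand from 156254 to 157003. That of *ght5* ended at base 212308 in both, 5 nt before the first codon. An end at base 228532 of *ght8*, 132 nt before the first codon, was in both. The other WT leader-only end of *ght8*, at base 228428, had no pool end at the same base. At *ght2* the WT ends lay 33, 121 and 159 nt before the first codon, and the pool had 4 ends at 34 to 133 nt and 4 much earlier ends at 611 to 818 nt. One further *ght2* pool model, starting 1692 nt before the first codon, ended 6 nt before it.

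Genomic A runs were measured after each end, because oligo(dT) can prime on them as it does on a poly(A) tail. Of the 20 bases after the end, 17 were A at base 157090 of *ght4*, 12 at 212308 of *ght5* and 16 at 212040 of *ght5*, the second pool end there. At *ght2* and *ght8* the leader-only ends had 3 to 8. The part of A runs in the leader-only models of *ght4* and *ght5* was not tested. The 30 bases around these ends, from 24 bases before the last base of the model to 5 bases after it, show the contrast between genes.
*ght4* leader-only end, II:157066-157095, plus strand: aaattcaacaaacactataagcccgaaaaa
*ght5* leader-only end, III:212284-212313, plus strand: tattacccttttaatcgtaattttcaaaaa
*ght8* leader-only end, III:228527-228556, minus strand: ttaatactacatacttcacttttgcaacat
*ght2* leader-only end, II:3427515-3427544, plus strand: ttctatagaatttttgttttttttcatctt

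**Figure D3:**
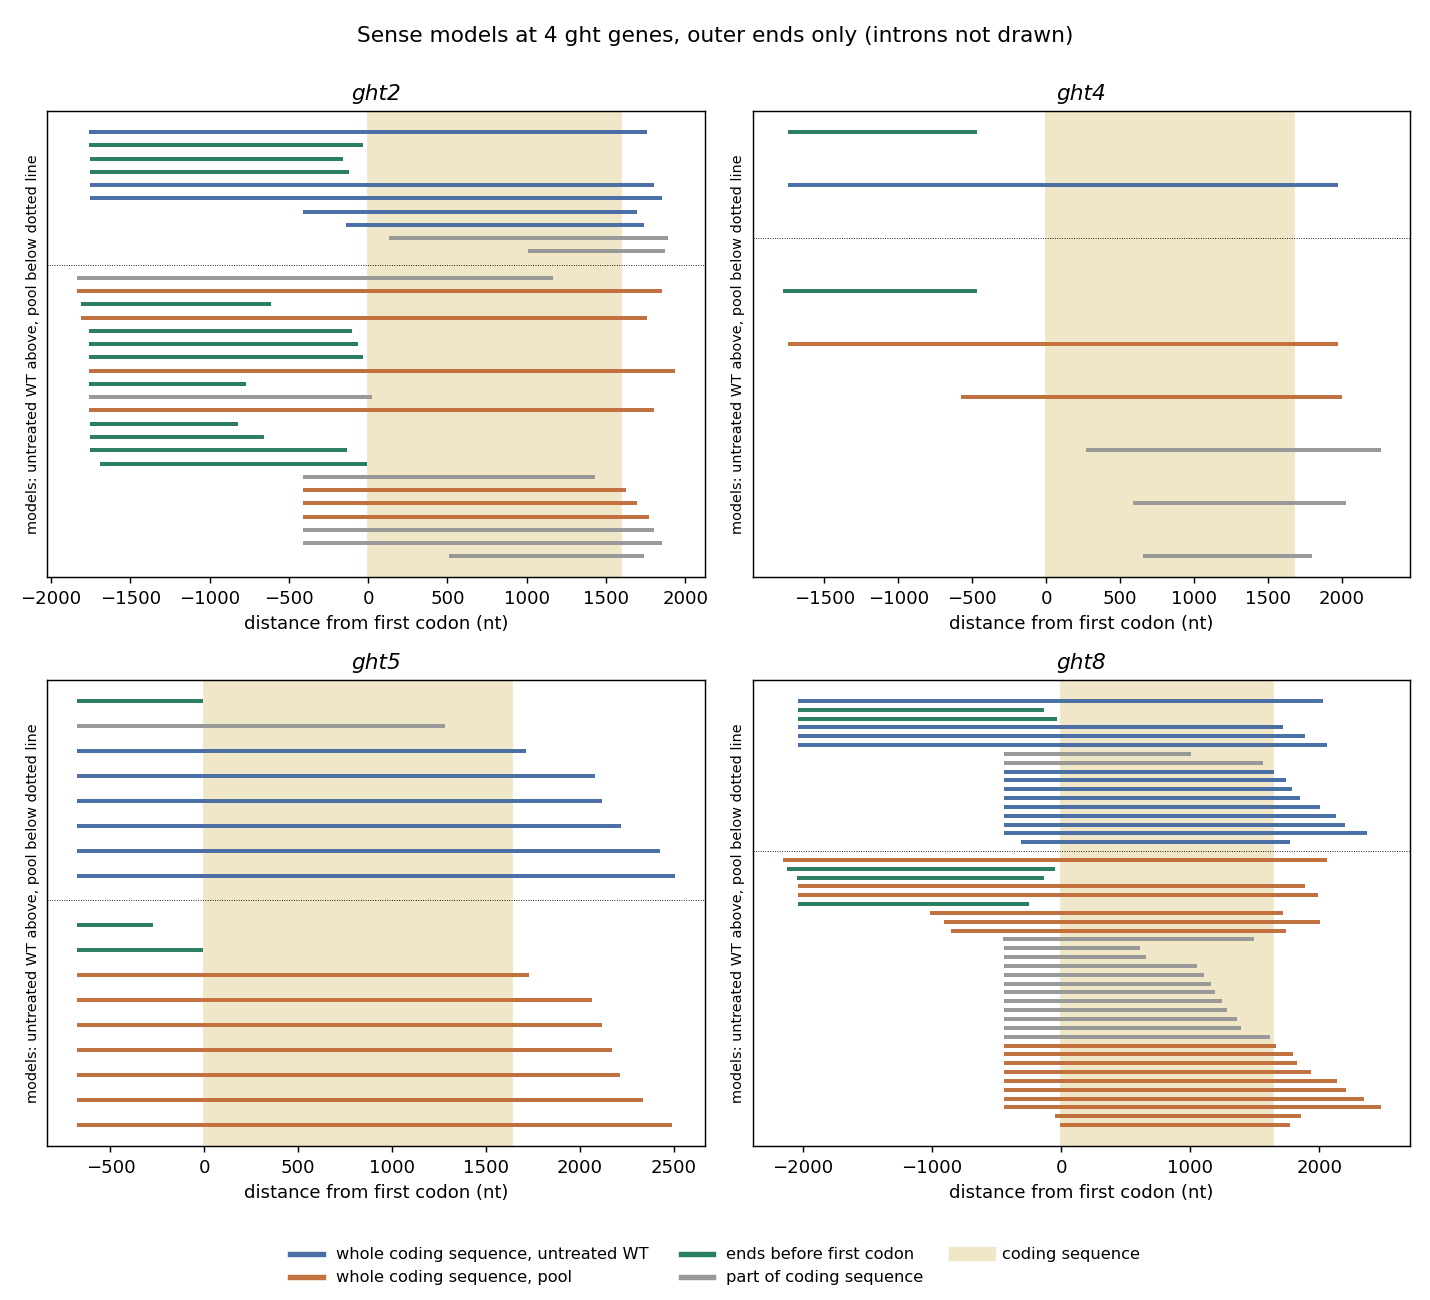
Extent of every sense and leader-only model at *ght2*, *ght4*, *ght5* and *ght8*, in nt from the first codon, with WT above the dotted line and the pool below it; green lines end before the first codon, grey lines cover part of the coding sequence, and shading marks the coding sequence. The *ght5* models share 1 start at -678, and the green lines at *ght2* and *ght8* come from the distal start.

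The 3′ ends were most varied at *ght8*. Its sense models ended in 11 clusters in WT and 17 in the pool, and 0.47% and 0.712% of genes with a sense model had at least as many. The median gene with a sense model had 3 end clusters in WT and 5.0 in the pool. Past the stop codon, the *ght8* ends ran from 7 to 723 nt in WT and to 832 nt in the pool. *ght5* had 6 end clusters in WT and 5 in the pool, and *ght2* had 4 and 7. *ght5* ends lay from 72 to 868 nt past the stop codon in WT and from 92 to 850 nt in the pool.

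Among models that passed the stop codon, *ght2* ended 103 to 299 nt past the stop codon in WT and 29 to 341 nt in the pool. *ght4* ended 299 nt past it in WT and 123 to 589 nt in the pool, with base 159527 used in both libraries. That base is followed by 15 A in 20. *ght1* ended 510 nt past the stop codon in WT and 509 and 533 nt in the pool. *ght3* ended 146 and 182 nt past it in WT and 35 to 183 nt in the pool. The 3 *ght7* pool models ended 30, 56 and 67 nt past it, near the annotated end, and the *ght6* sense model ended 375 nt past it.

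Ends inside the coding sequence were found at *ght5*, *ght8* and *ght2*. In WT there were 1 at *ght5* and 2 at *ght8*. In the pool there were 12 at *ght8* and 3 at *ght2*. By gene, this was 2 of 6 in WT beside 25.9% of all genes with a sense model, and 2 of 8 in the pool beside 52.6%. By model, 3 of 39 *ght* sense models (7.69%) ended in the coding sequence in WT and 15 of 72 (20.8%) in the pool, where the shares over all genes were 8.44% and 13.4%. All but 3 of the 15 pool models were from *ght8*.

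The 12 pool models of *ght8* all began at the proximal start and ended between 1030 and 26 nt before the last coding base. They spread over 7 end clusters. The 20 bases after the *ght* ends inside coding sequence held 4 to 6 A in WT and 3 to 7 A in the pool, and 0 of these ends had 12 or more. Over all genes, 45.5% of ends inside coding sequence had 12 or more A after them in WT and 32.0% in the pool. The polyadenylation signal AATAAA stood within 50 bases before 5.13% of all *ght* sense ends in WT and 11.1% in the pool, beside 14.2% and 13.2% over all genes. It stood before 0 of the *ght* ends inside coding sequence.
*ght8* end at -532 from the last coding base, III:227284-227313, minus strand: gtgccggtgccgttatgattgtgttctcat
*ght8* end at -1030 from the last coding base, III:227782-227811, minus strand: ctttccttcctgaatcccctcgttatttga

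**Figure D4:**
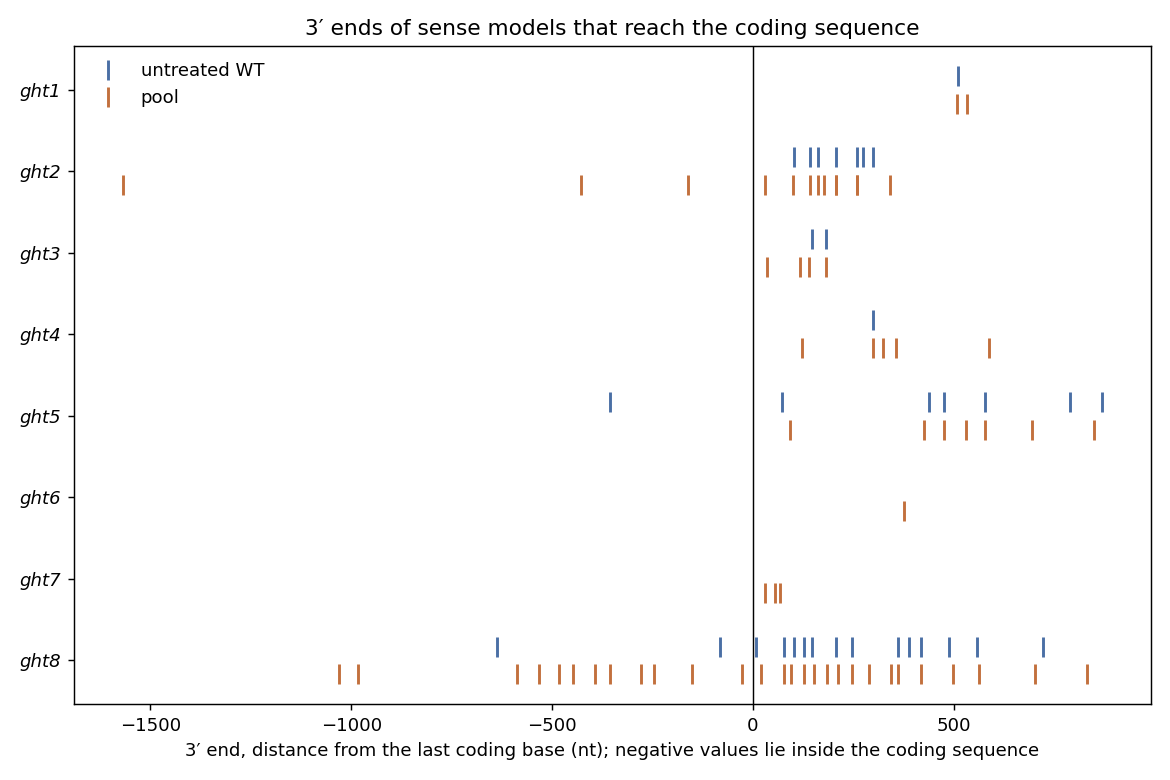
3′ ends of the sense models that reach the coding sequence, in nt from the last coding base, with 1 tick per model, blue for untreated WT and orange for the pool; negative values lie inside the coding sequence. *ght8* has 12 pool ends inside the coding sequence, and *ght5* ends reach 868 nt past it.

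A pair of pool models of *ght2* lacked a stretch of coding sequence. Both began at base 3427160 and skipped 525 nt, from 3428397 to 3428921, a multiple of 3. The ends of the gap were GT and TT rather than GT and AG, and 7 nt were repeated at its borders, so the position of the junction is not fixed by the alignment. The first 15 and last 15 bases of the gap are shown with these letters in capitals. Over all introns, 97.2% had GT-AG ends in WT and 89.7% in the pool, and whether this gap is a spliced intron was not tested.
*ght2* gap, first 15 bases: GTtatgtcgcttcaa
*ght2* gap, last 15 bases: ttgaccggtgcaaTT

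Antisense models here overlap an exon of the gene on the opposite strand. On their own strand they overlap no exon of any annotated gene other than a lncRNA or ncRNA. They were found at 2 *ght* genes in WT and 5 in the pool. Over all genes, 8.41% had one in WT and 55.5% in the pool. In number there were 4 antisense models over the family in WT and 24 in the pool, a ratio of 6.0, beside 13.14 over all protein-coding genes. All 4 WT models and 19 of the 24 pool models overlapped a non-coding RNA already annotated on their strand. The share of such models among the antisense models of all genes was not measured, so this is not shown to be a trait of the family.

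*ght6* stood apart in WT, because antisense was the strand that was seen there. It had 3 antisense models and 0 sense models. All 3 began at base 206732, 392 nt past the stop codon, and 2 of them crossed the whole coding sequence of 1608 nt. In the pool 3 of the 4 antisense models began at the same base. The annotated non-coding RNA SPNCRNA.1118 lies on this strand from 204633 to 206912. TATAAA also lay within 100 bp before the WT antisense start of *ght4* at base 155986 and the *ght7* pool start at base 38423. Taking the commonest start of each cluster, it was not found before the other antisense starts of *ght4* and *ght7* or those of *ght1* and *ght5*. The share over the antisense starts of all genes was not measured. The 60 bases before the shared *ght6* start are shown, and TATAAA lies further upstream, within 100 bp of it.
*ght6* antisense start 392 nt past the stop, III:206733-206792, minus strand: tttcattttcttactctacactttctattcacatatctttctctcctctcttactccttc

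*ght7* had 0 models on either strand in WT. In the pool it had 7 antisense models and 3 sense models. The antisense models came from 3 start clusters, 1 model from base 38423, which is 164 nt past the stop codon, 3 models near base 38756 and 3 from base 39416, the last 2 clusters being inside the coding sequence. They overlap SPNCRNA.4529, annotated from 38765 to 40365. The most of the *ght7* coding sequence covered by an antisense model was 89.1%.

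*ght4* had 1 antisense model in WT and 7 in the pool. The WT model began at base 155986, inside the long 5′ leader of *ght4*, ran away from the *ght4* coding sequence and covered 1119 of the 1740 coding nt of the upstream gene *mal1*, an alpha-glucosidase gene. A pool model from base 156150 ended at the same base as this one, and another, from base 155955, covered all 1740 nt. Neither these nor the WT model overlapped the coding sequence of *ght4*. Of the other 5 pool models, 3 began near base 158309 inside the coding sequence and 2 near base 159641. Of the 3, 2 lacked 51 nt with GT-AG ends, from 157521 to 157571.

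The antisense models at *ght1* and *ght5* were seen in the pool, with 3 at each gene. At *ght1* the model from base 232729, 105 nt past the stop codon, covered the whole coding sequence of 1674 nt. One from base 232853 covered 1655 nt of it. At *ght5* a model from base 214272 covered 1565 of 1641 coding nt and lacked 76 nt with GT-AG ends, from 212497 to 212572, and a model from base 213686 covered 1374 nt. The third *ght5* model, from base 215274, overlapped only 37 nt of the annotated gene and 0 coding nt.

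*ght2*, *ght3* and *ght8* had 0 antisense models in both libraries. RefSeq annotates non-coding RNAs on the opposite strand within each of them: SPNCRNA.6128 and SPNCRNA.6129 at *ght2*, SPNCRNA.2039 at *ght3*, and SPNCRNA.6752 and SPNCRNA.6753 at *ght8*. The pool did have opposite-strand models over the observed leader outside the annotated *ght2* gene. There were 9, of which 6 began at base 3426638, 934 nt before the first codon, and they overlapped SPNCRNA.6127. *ght5* had 2 of this kind in the pool, and 1 of them began at base 212308, the base at which 1 leader-only model of each library ended. In WT there were 0 at either gene.

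**Figure D5:**
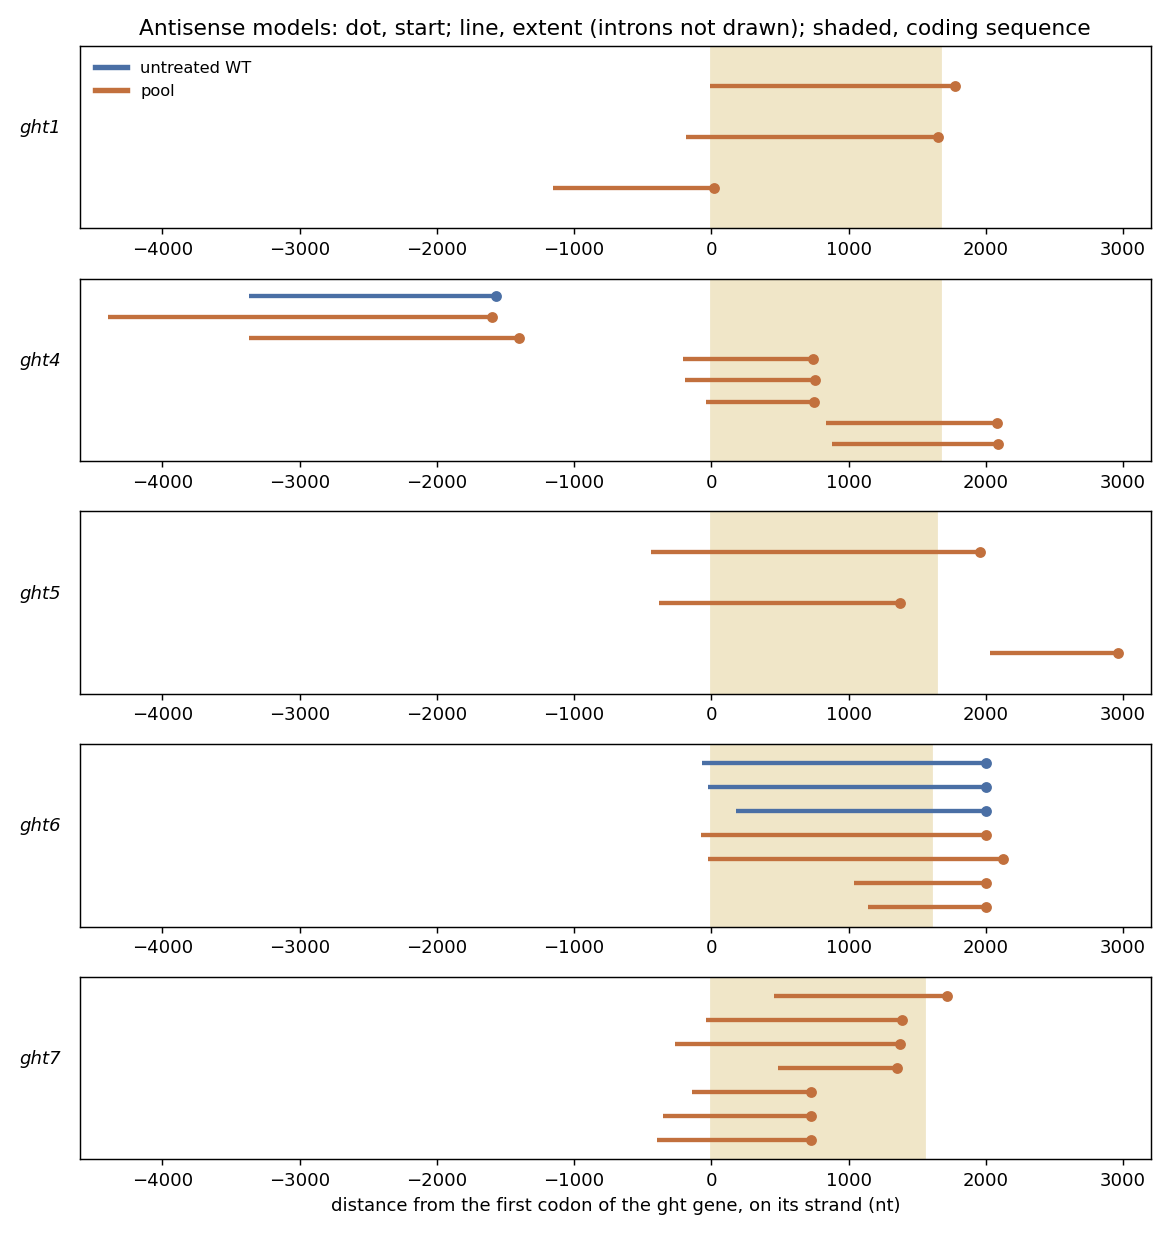
Antisense models at the 5 *ght* genes that had any, in nt from the first codon on the strand of the gene, with dots at starts, blue for untreated WT and orange for the pool, and shading over the coding sequence. Of the *ght6* models, 3 in each library share a start at 1999 nt, and the WT model of *ght4* runs away from its coding sequence.

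A fixed list of 24 other genes of glucose use and sensing, matched by symbol, gave the setting for the family. Of these, 23 had a sense model in WT and 24 in the pool, and the median number was 5.5 and 12. The exception in WT was *fbp1*, the gene for the gluconeogenic enzyme fructose-1,6-bisphosphatase. It had 0 sense and 0 antisense models in WT and 4 sense and 8 antisense models in the pool. With *ght7*, it shared the absence of sense and antisense models in WT. An antisense model was found at 4 of the 24 in WT and 14 in the pool. Longest leaders of at least 500 nt were found at 8 of 22 in WT and 15 of 23 in the pool. Among them were *gld1*, the glycerol dehydrogenase gene, with 2451 nt in both libraries, the hexokinase gene *hxk2*, with 1490 and 2127 nt, and *rst2*, with 1307 and 1310 nt. At *scr1* the longest leader measured 330 nt in WT and 1503 nt among the pool models.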

How the data were processed

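Total RNA of each library was sequenced on the PacBio platform. The authors clustered reads with Iso-Seq4, aligned them with minimap2 and collapsed them with TAMA Collapse, allowing 100 nt at starts and splice junctions and letting models with shorter 5′ ends join longer ones (no_cap). The deposited BED files give, per the labels on build ASM294v2, the position, blocks and a score of each model; the score is 40 throughout, so read depth per model is unknown. The other columns used, positions and block numbers, were taken as the authors deposited them. RefSeq ASM294v3 genes were applied after introns were checked: 97.2% and 89.7% had GT-AG ends, and 0.145% and 0.187% when moved by 10 nt.

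Sequences were read from the RefSeq ASM294v3 genome. The sequence before 1 further antisense start of *ght6* is not reported here. A sense model shared at least 1 exonic base on the gene's strand. Starts and ends within 50 nt were joined. All 8 genes were named. The members and lists were chosen with earlier results of these data known. In the fixed list, *glk1* was not matched, and *pck1*, a protein kinase C gene here, had been placed among gluconeogenic genes in error. Identities came from Biopython 1.88 global alignments. The classification was tested on simulated data. Alternatives were other overlaps, joining distances and counting copies within 20 nt once.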

Additional observations from a re-analysis of the deposited data

How the results depend on the processing

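Of 38 alternative values, 35 stayed within 1.5 times the value reported. Requiring overlap with the coding sequence left 1 *ght* gene with antisense in WT instead of 2, *ght4* being the gene lost, since its model lies over the leader. The number of sense 3′ end clusters in the pool was 38, and it became 65 when ends within 20 nt were joined and 23 when ends within 100 nt were joined, by the construction of the alternative. No replicate could be left out, because each condition had 1 library. No paired analysis was possible because the groups compared share fewer than 2 replicate numbers and no test was run. Depth limits the absences: a gene with 0 models in WT was not detected at a depth that the files do not give.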
